A study of Homo sapiens with 18 samples.

Results

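The genes described here are 10 components and target genes of the YAP and TEAD pathway, measured by RNA sequencing in bladder cancer cells in which ACAT1 was knocked down. They were chosen by name and not by a cut on their values, but with earlier results of these data known. YAP1 and WWTR1 were taken as coactivators, TEAD1 as a transcription factor, and CTGF, CYR61, ANKRD1, AMOTL2 and AXL as target genes. LATS2 and AJUBA were taken as regulators. All 10 were found among the 39496 genes of the count table, where CCN2 and CCN1 carry their older symbols CTGF and CYR61, and all 10 were among the 20144 genes that passed the filter on low counts. The question of the study was what ACAT1, a mitochondrial enzyme that joins and splits acetyl-CoA units, does in bladder cancer cells.

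UM-UC-3 and T24, 2 established human bladder cancer cell lines with the genotype label wild type, were each transfected with a negative control siRNA (siNC) or with 1 of 2 siRNAs of different sequence against ACAT1 (siACAT1-1 and siACAT1-2). Each of the 6 groups had 3 libraries, labelled biological replicates 1 to 3, which the study describes as independent experiments. All cells received the same lipid transfection reagent, UM-UC-3 cells were kept in MEM and T24 cells in RPMI-1640, so line and medium cannot be told apart. The time from transfection to harvest is not given in the sources used here, and each line is 1 cell culture model of bladder cancer.

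In the Hippo pathway, the kinases MST1/2 and LATS1/2 phosphorylate the coactivators YAP (YAP1) and TAZ (WWTR1), which are then kept in the cytoplasm and degraded. When the kinases are inactive, as in sparse or spread cells, both coactivators enter the nucleus and bind the DNA-binding TEAD factors, which switch on genes such as CTGF, CYR61, ANKRD1 and AMOTL2. LATS2 and AMOTL2 are at the same time targets and inhibitors of YAP, which makes a feedback loop, and the output of the pathway is known to follow cell density, attachment and serum.

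Counted reads per library ranged from 25163490 to 34417230, with a median of 28613163. ACAT1 was lower in 12 of 12 knockdown libraries than in the siNC library of the same number, on average 17.0-fold (log2 -4.09, SE 0.12, adjusted p = 2.1e-12 in the edgeR quasi-likelihood test). Of the urothelial and epithelial markers, the simple keratins KRT8 and KRT18 were high in both lines (40.6 and 142 RPKM in UM-UC-3 siNC, 250 and 236 RPKM in T24 siNC, means of 3 libraries), whereas the E-cadherin gene CDH1 and the uroplakins UPK1B and UPK3A were listed at a mean of 0 RPKM in the siNC libraries of both lines. Immune and endothelial markers stayed at a mean of at most 0.10 RPKM in every group. RPKM are reads per kilobase of gene length, scaled to the depth of the library.

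The genes were chosen for their known link to YAP and TEAD, so a TEAD motif in their promoters is not independent of that choice. The motif CATTCC, known as the M-CAT element and bound by TEAD factors, was searched on both strands (GGAATG on the other strand, which does not overlap it) in RefSeq promoters of GRCh38.p14, from 250 bases before to 50 bases after each start site. Promoters were on hand for 8 of the 10 genes, 12 windows in all, and CYR61 and TEAD1 had no entry. The letters were found in 7 of the 12 windows, 1 window each of YAP1, CTGF, ANKRD1, AMOTL2, AXL, LATS2 and AJUBA, against 14.0% of all 35116 promoters. The LATS2 match lies 9 bases after the start site, and the other matches lie before it. CTGF held 3 matches and ANKRD1 2, while 0.128% of all promoters held 3 or more and 1.37% held 2 or more. The upstream 250 bases of 3 target genes that varied between libraries are given 5′ to 3′ in the direction of the gene, with the motif in capitals. These are CTGF at chr6:131951373-131951622 on the minus strand, ANKRD1 at chr10:90921088-90921337 on the minus strand, and the AMOTL2 start site that holds a match, at chr3:134374448-134374697 on the minus strand.
CTGF: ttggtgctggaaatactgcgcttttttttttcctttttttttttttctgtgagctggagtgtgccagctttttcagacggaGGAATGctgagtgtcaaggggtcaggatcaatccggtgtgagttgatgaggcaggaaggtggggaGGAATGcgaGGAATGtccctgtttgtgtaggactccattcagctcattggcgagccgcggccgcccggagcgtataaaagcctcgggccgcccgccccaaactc
ANKRD1: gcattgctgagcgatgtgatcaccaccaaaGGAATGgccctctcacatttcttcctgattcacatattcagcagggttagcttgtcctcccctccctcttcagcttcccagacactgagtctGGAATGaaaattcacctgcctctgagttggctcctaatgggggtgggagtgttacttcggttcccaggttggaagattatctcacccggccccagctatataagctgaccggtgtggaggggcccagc
AMOTL2: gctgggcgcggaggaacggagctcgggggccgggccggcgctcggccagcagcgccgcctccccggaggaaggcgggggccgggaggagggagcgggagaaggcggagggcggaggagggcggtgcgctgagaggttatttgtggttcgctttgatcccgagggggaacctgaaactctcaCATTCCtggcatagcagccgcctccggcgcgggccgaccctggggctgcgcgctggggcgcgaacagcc
In CTGF the first bases of the matches lie 169, 104 and 95 bases before the start site, the last pair close together. In ANKRD1 they lie 220 and 128 bases before it, and in AMOTL2 the match lies 69 bases before it. A match of letters is a description and not evidence of binding in these cells.

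By level per length, the secreted matricellular protein gene CYR61 had the highest mean of the 10 genes in the siNC libraries of both lines, with 55.6 ± 48.0 RPKM in UM-UC-3 and 107 ± 29.0 RPKM in T24 cells (SD, n = 3 each). AXL, a receptor tyrosine kinase, and AMOTL2, an angiomotin family scaffold, followed with 36.8 ± 4.61 and 33.5 ± 13.3 RPKM in UM-UC-3 and 33.3 ± 5.47 and 28.3 ± 6.29 RPKM in T24 cells. In UM-UC-3 cells the ranges of CYR61, AXL and AMOTL2 overlapped, and in both lines AXL and AMOTL2 did not differ beyond their spread. At the lower end, the kinase gene LATS2 had 2.06 ± 0.207 RPKM in UM-UC-3 and 3.16 ± 1.60 RPKM in T24 cells, and TEAD1 had 2.81 ± 0.609 and 2.91 ± 0.184 RPKM. The values of these genes overlapped in T24 cells, while in UM-UC-3 cells each TEAD1 value lay above each LATS2 value. The coactivator gene YAP1 stood above WWTR1 in each siNC library, by RPKM.

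**Figure D1:**
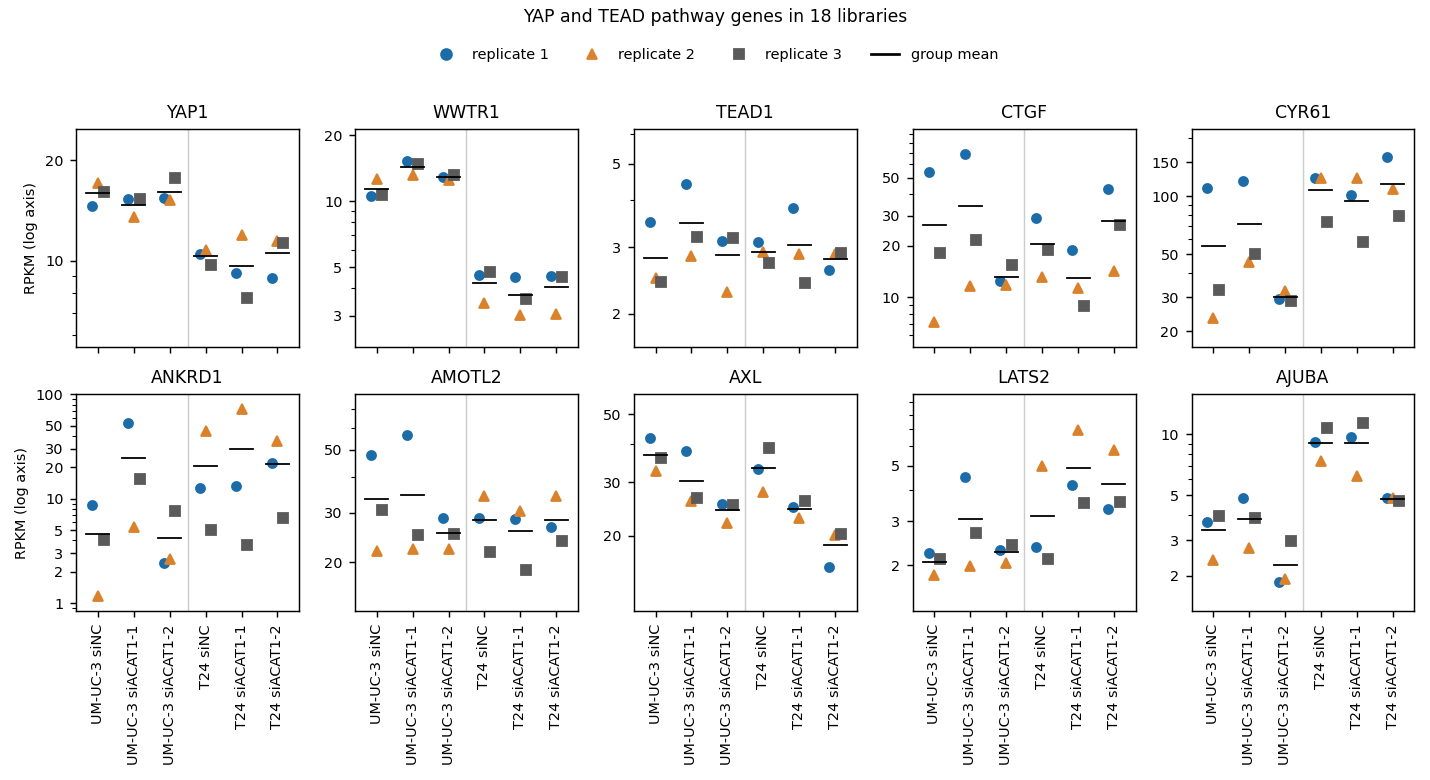
RPKM (log axis) of the 10 genes in 18 libraries, by group on the x axis, with a marker for each replicate number and a line at the mean of 3. CTGF, CYR61 and ANKRD1 spread widely within most groups, YAP1, WWTR1 and AXL do so less, and the AXL means lie below siNC with both ACAT1 siRNAs in both lines.

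The coactivator genes were higher in UM-UC-3 than in T24 control cells, AJUBA was lower, and TEAD1, with close means, did not pass the test. WWTR1 was 2.74-fold higher in UM-UC-3 siNC than in T24 siNC (log2 1.45, SE 0.21, adjusted p = 3.27e-05 in edgeR). Its values were 10.6, 12.7 and 10.7 RPKM in UM-UC-3 and 4.58, 3.43 and 4.73 RPKM in T24 cells, without overlap. YAP1 was 1.59-fold higher in UM-UC-3 (log2 0.67, SE 0.15, adjusted p = 0.00153), with 14.5, 17.1 and 16.1 RPKM against 10.5, 10.8 and 9.75 RPKM, also without overlap. AJUBA, a LIM domain protein that binds LATS kinases and restrains them, went the other way and was 2.64-fold lower in UM-UC-3 (log2 -1.40, SE 0.27, adjusted p = 0.000443). Thus 3 of the 10 genes were called, against 44.3% of all genes tested, a share below the background, and DESeq2 called the same 3 against 38.5%.

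With the replicate number of each line in the model, 6 of the 10 genes were called between the lines against 61.7% of all genes. The further 3 were all lower in UM-UC-3: CYR61 (log2 -1.14, SE 0.26, adjusted p = 0.000688), ANKRD1 (-1.94, SE 0.44, adjusted p = 0.000671) and LATS2 (-0.47, SE 0.16, adjusted p = 0.0141). Without it these genes had adjusted p of 0.150, 0.118 and 0.175. The numbers are fitted within each line, so this model takes the variation between numbers out of the error and does not compare the lines within a number. The further 3 calls rest on that and do not cover the spread between the experiments of a line. ANKRD1, a cardiac ankyrin repeat protein used as a YAP reporter, spanned 1.17 to 8.63 RPKM in UM-UC-3 siNC and 4.97 to 44.4 RPKM in T24 siNC. The 3 libraries of each line overlapped, as they did for LATS2 and CYR61. CYR61 spanned 23.3 to 111 RPKM in UM-UC-3 siNC and 73.9 to 124 RPKM in T24 siNC.

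**Figure D2:**
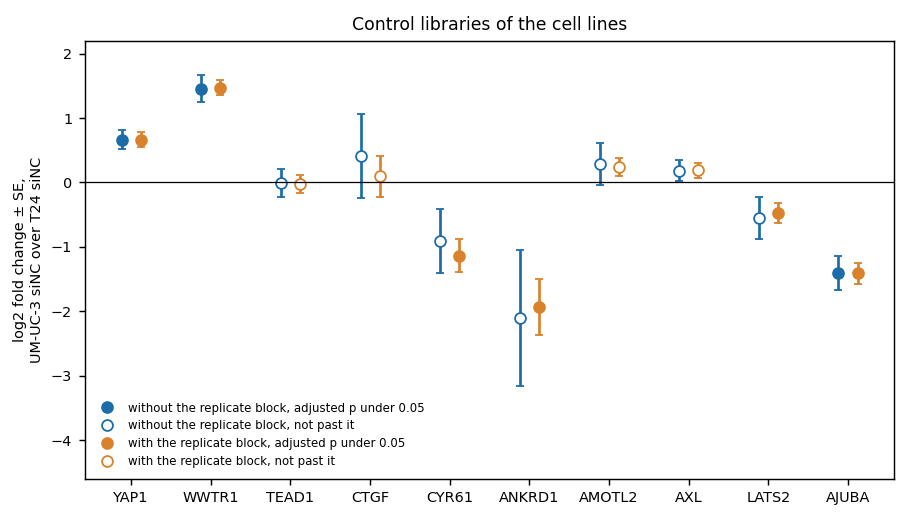
Log2 fold change of UM-UC-3 siNC over T24 siNC with its SE, for each gene, in the edgeR model without (blue) and with (orange) the replicate number; filled points have an adjusted p under 0.05. YAP1 and WWTR1 lie above 0 and AJUBA below 0 in both models, while CYR61, ANKRD1 and LATS2 are filled with the replicate number alone.

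Among the other genes of the coactivator and TEAD group, TEAD4 had the highest level of the TEAD factors in both lines (6.93 RPKM in UM-UC-3 and 7.63 RPKM in T24 siNC, means of 3 libraries). TEAD3 was low in UM-UC-3 cells, 0.255 RPKM against 1.98 RPKM in T24 cells, and VGLL1 was listed at a mean of 0 RPKM in the siNC libraries of both lines. Of the 8 genes of this group that were tested, 4 were called between the lines, TEAD3, WWTR1, VGLL4 and YAP1, against 44.3% of all genes, a share near the background. VGLL4, which competes with YAP for TEAD binding, was higher in UM-UC-3 cells (2.45 against 1.29 RPKM).

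Knockdown of ACAT1 was followed by lower AXL, and by no other call among the 10 genes when both siRNAs and both lines were averaged. In UM-UC-3 cells AXL had 41.7, 32.5 and 36.1 RPKM in siNC, 37.9, 25.9 and 26.7 RPKM in siACAT1-1 and 25.4, 22.1 and 25.2 RPKM in siACAT1-2 libraries. In T24 cells it had 33.2, 27.9 and 38.8 RPKM in siNC, 24.8, 22.8 and 26.0 RPKM in siACAT1-1 and 15.8, 20.1 and 20.2 RPKM in siACAT1-2 libraries. The siACAT1-2 libraries lay below all siNC libraries in both lines and the siACAT1-1 libraries did so in T24 cells, whereas siACAT1-1 and siNC overlapped in UM-UC-3 cells. AXL was lower in 12 of 12 pairs of libraries with the same replicate number. Each siNC library served as the control of both siRNAs, so these pairs are not independent. The share of all genes that were lower in each pair was not counted. Averaged over the 4 comparisons AXL was 1.46-fold lower (log2 -0.55, SE 0.10, adjusted p = 0.0399 in edgeR).

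This was 1 gene of 10 against 0.223% of all genes tested, and the median log2 fold change of the 10 genes was -0.09, against -0.0013 over all genes. DESeq2 also called AXL alone, among 1.64% of its genes. In bulk RNA fewer cells of one kind and less RNA per cell cannot be told apart. Leaving out 1 library gave an adjusted p from 0.00863 to 0.180 and ended the call in 15 of 18 cases, the highest p being that without UM-UC-3 siNC replicate 1, and AXL stayed called without UM-UC-3 siACAT1-1 replicate 1, T24 siNC replicate 2 or T24 siACAT1-1 replicate 2. The value itself ranged from -0.62 to -0.49.

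The replicate numbers marked a shared deviation of libraries within a line. What a number marks is not given in the sources used here. The fit was therefore repeated with the replicate number within each line as a block, so that an siRNA library is compared with the control library of its own number. With this block edgeR called 12.4% of all genes for the mean of the 4 comparisons, and 3 of the 10 genes: AXL (log2 -0.54, SE 0.07, adjusted p = 4.21e-05), LATS2 (0.45, SE 0.10, adjusted p = 0.00486) and AJUBA (-0.32, SE 0.10, adjusted p = 0.0350). AXL and LATS2 were called without each of the 18 libraries in turn (adjusted p at most 0.000786 and 0.0357), and AJUBA without 9 of the 18 (adjusted p from 0.0105 to 0.120). The AJUBA call ended without UM-UC-3 siNC replicate 1, 2 or 3, UM-UC-3 siACAT1-1 replicate 2 or 3, UM-UC-3 siACAT1-2 replicate 1, T24 siNC replicate 1 or 3, or T24 siACAT1-2 replicate 3.

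**Figure D3:**
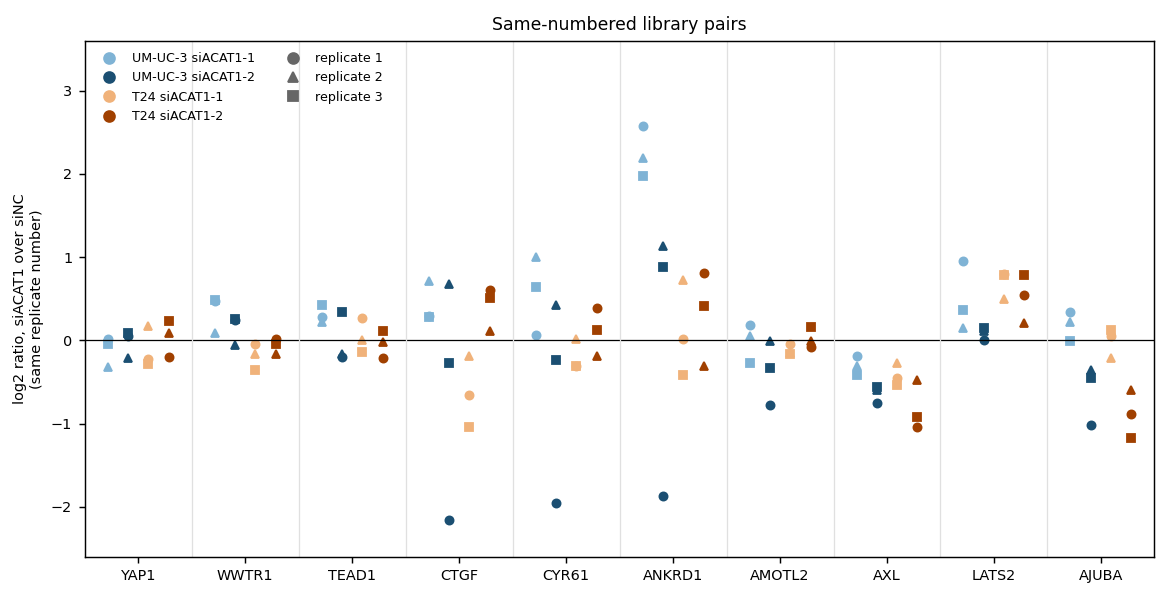
Log2 ratio of each ACAT1 siRNA library over the siNC library of the same replicate number and line, from log2 CPM, for the 10 genes (colour, line and siRNA; marker, replicate number). The 12 points of AXL lie below 0 and the 12 points of LATS2 above 0, those of AJUBA fall below 0 with siACAT1-2, and the lowest points of CTGF (-2.16), CYR61 (-1.96) and ANKRD1 (-1.87) are those of UM-UC-3 siACAT1-2 replicate 1.

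LATS2 was higher in 12 of 12 same-numbered pairs, which again shared siNC libraries between the siRNAs. By pair LATS2 was 0.0088 to 0.96 higher on the log2 scale, the narrowest gap being that of UM-UC-3 siACAT1-2 replicate 1. In UM-UC-3 cells it had 2.24, 1.83 and 2.11 RPKM in siNC, 4.50, 1.99 and 2.69 RPKM in siACAT1-1 and 2.31, 2.04 and 2.41 RPKM in siACAT1-2 libraries. In T24 cells it had 2.36, 4.99 and 2.12 RPKM in siNC, 4.20, 6.93 and 3.56 RPKM in siACAT1-1 and 3.37, 5.76 and 3.59 RPKM in siACAT1-2 libraries. The groups overlapped in each of the 4 comparisons, replicate 2 of T24 cells was the highest of its group in all 3, and replicate 1 of UM-UC-3 siACAT1-1 stood above the other UM-UC-3 libraries. Without the block the mean log2 change was 0.44 (SE 0.20, adjusted p = 0.442 in edgeR), against 0.45 with it. In T24 cells the blocked change was 0.69 with siACAT1-1 (SE 0.16, adjusted p = 0.00600) and 0.51 with siACAT1-2 (SE 0.16, adjusted p = 0.0471). The first call ended without T24 siNC replicate 3 or T24 siACAT1-1 replicate 1 (adjusted p at most 0.0771), and the second without 14 of the 18 libraries (adjusted p at most 0.312), each of the 6 T24 siNC and siACAT1-2 libraries among them but T24 siNC replicate 2.

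AJUBA was lower with siACAT1-2 than with siACAT1-1. In T24 cells it had 9.14, 7.36 and 10.8 RPKM in siNC, 9.69, 6.26 and 11.3 RPKM in siACAT1-1 and 4.82, 4.86 and 4.69 RPKM in siACAT1-2 libraries. The siACAT1-2 libraries of T24 cells lay below all 6 others, while siACAT1-1 spanned the siNC values. In UM-UC-3 cells it had 3.69, 2.40 and 3.96 RPKM in siNC, 4.85, 2.75 and 3.86 RPKM in siACAT1-1 and 1.87, 1.93 and 2.98 RPKM in siACAT1-2 libraries, and here siNC and siACAT1-2 overlapped. With siACAT1-2 it was lower in 6 of 6 same-numbered pairs, and with siACAT1-1 in 2 of 6.

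The difference between the siRNAs was tested directly, as siACAT1-2 minus siACAT1-1 averaged over both lines. AJUBA was 1.81-fold lower with siACAT1-2 (log2 -0.86, SE 0.19, adjusted p = 0.0224 in edgeR), 1 call among the 10 genes against 2.56% of all genes. The call ended without any of 7 libraries, namely UM-UC-3 siACAT1-1 replicate 1, UM-UC-3 siACAT1-2 replicates 1 and 2, T24 siACAT1-1 replicates 1 and 3, and T24 siACAT1-2 replicates 1 and 3 (adjusted p from 0.00480 to 0.0824 over all 18). DESeq2 called AJUBA and AXL, with 7.58% of its genes. With the replicate block 3 of the 10 genes were called against 20.6% of all genes: AJUBA (-0.83, SE 0.12, adjusted p = 6.12e-05), AXL (-0.36, SE 0.08, adjusted p = 0.00324) and ANKRD1 (-0.95, SE 0.31, adjusted p = 0.0324). The ANKRD1 call ended without UM-UC-3 siACAT1-1 or siACAT1-2 replicate 1, or T24 siACAT1-1 or siACAT1-2 replicate 2 (adjusted p at most 0.117). AXL thus fell more with siACAT1-2 than with siACAT1-1 in that model, and without the block the difference was -0.37 (SE 0.12, adjusted p = 0.111). ACAT1 itself was also lower with siACAT1-2 than with siACAT1-1 (log2 -0.62, SE 0.15, adjusted p = 0.0340). The median difference of the 10 genes was -0.28, against 0.011 over all genes.

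Taken comparison by comparison without the block, 0 of the 10 genes were called for UM-UC-3 with siACAT1-1 (0.00993% of all genes called) or siACAT1-2 (0.0546%), or for T24 with siACAT1-1 (0.124%) or siACAT1-2 (0.268%). At an unadjusted p under 0.05 these comparisons held 1075, 777, 2325 and 1700 genes of 20144, and DESeq2 called 0, 0, 0 and 1 of the 10, the last being AXL, among 0.0795%, 0.113%, 2.08% and 1.27% of the genes that DESeq2 tested. The lowest adjusted p of the 10 genes was that of AXL with siACAT1-2 in T24 cells (log2 -0.82, SE 0.17, adjusted p = 0.0586). With the block the calls of edgeR were ANKRD1, higher with siACAT1-1 in UM-UC-3 (1 of 10 against 3.06% of all genes), AXL, lower with siACAT1-2 in UM-UC-3 (1 of 10 against 1.36%), LATS2, higher, and AXL, lower, with siACAT1-1 in T24 cells (2 of 10 against 13.9%), and AXL and AJUBA, lower, and LATS2, higher, with siACAT1-2 in T24 cells (3 of 10 against 8.48%). Of these, the UM-UC-3 AXL call with siACAT1-2 ended without UM-UC-3 siACAT1-2 replicate 1 (adjusted p = 0.0623), and that with siACAT1-1 in T24 cells without T24 siNC replicate 1 or 3 or T24 siACAT1-1 replicate 1 or 3 (adjusted p at most 0.130). The effect of ACAT1 knockdown in UM-UC-3 minus that in T24 cells was called for 0 of the 10 genes without and with the block (0% and 0.104% of all genes; 517 and 1905 genes at an unadjusted p under 0.05), and by DESeq2 for 0 of the 10 (0.00253% of its genes).

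ANKRD1 showed the largest single change of the 10 genes by log2 fold change, and it came in 1 of the 4 comparisons. With siACAT1-1 in UM-UC-3 cells it had 53.4, 5.35 and 15.6 RPKM, against 8.63, 1.17 and 4.01 RPKM with siNC of the same replicate numbers. The ranges overlapped, yet each same-numbered pair was higher, by 1.97 to 2.58 on the log2 scale. With the block the change was 2.30 (SE 0.44, adjusted p = 0.00744 in edgeR), and without it 2.41 (SE 1.07, adjusted p = 0.933). The blocked call ended without UM-UC-3 siNC replicate 3 (adjusted p = 0.130) or UM-UC-3 siACAT1-1 replicate 1 (adjusted p = 0.210). With siACAT1-2 in the same line ANKRD1 had 2.41, 2.66 and 7.62 RPKM, 1 value below and 2 above siNC of the same number.

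CTGF and CYR61, the best known YAP and TEAD targets, were not called for ACAT1 knockdown in any comparison by edgeR with or without the block or by DESeq2. Without the filter on low counts edgeR called both, lower, with siACAT1-2 in UM-UC-3 cells, among 58 genes in all. CYR61 in UM-UC-3 cells had 111, 23.3 and 32.7 RPKM in siNC, 120, 45.8 and 50.3 RPKM in siACAT1-1 and 29.3, 32.2 and 28.6 RPKM in siACAT1-2 libraries. CTGF had 54.3, 7.17 and 18.1 RPKM in siNC, 69.0, 11.6 and 21.7 RPKM in siACAT1-1 and 12.4, 11.8 and 15.4 RPKM in siACAT1-2 libraries. Replicate 1 was thus the highest of its group with siNC and siACAT1-1 but not with siACAT1-2, for both genes.

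The log2 fold change of siACAT1-2 over siNC in UM-UC-3 cells, -1.05 for CTGF (SE 0.66) and -0.93 for CYR61 (SE 0.50), rested on siNC replicate 1, and without that library the values were 0.041 and 0.071. In T24 cells CYR61 had 124, 124 and 73.9 RPKM in siNC, 102, 124 and 57.8 RPKM in siACAT1-1 and 159, 109 and 79.4 RPKM in siACAT1-2 libraries, and the groups overlapped. CTGF in T24 cells had 29.1, 13.1 and 18.9 RPKM in siNC, 18.8, 11.4 and 8.90 RPKM in siACAT1-1 and 43.3, 14.2 and 26.3 RPKM in siACAT1-2 libraries. It was lower in 3 of 3 same-numbered pairs with siACAT1-1 and higher in 3 of 3 with siACAT1-2. Averaged over the 4 comparisons CTGF had a log2 fold change of -0.22 (SE 0.40) and CYR61 of -0.15 (SE 0.30). With the block the values were -0.07 (SE 0.19) and -0.03 (SE 0.16).

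YAP1, WWTR1 and TEAD1 had values near 0, the nearest of the 10 genes without the block, while with it CYR61 was the nearest and CTGF nearer than TEAD1. The mean of the 4 comparisons was -0.05 for YAP1 (SE 0.09), 0.06 for WWTR1 (SE 0.13) and 0.08 for TEAD1 (SE 0.13), none of them called with or without the block. Group means of YAP1 lay between 14.7 and 16.1 RPKM in UM-UC-3 and between 9.64 and 10.5 RPKM in T24 cells. WWTR1 had 15.3, 13.3 and 14.7 RPKM in the siACAT1-1 libraries of UM-UC-3 cells, each above the 3 siNC values of that line, and 4.53, 3.03 and 3.57 RPKM in those of T24 cells, which overlapped siNC. Its log2 fold change in UM-UC-3 cells was 0.34 (SE 0.21, adjusted p = 0.946 in edgeR, and 0.0873 with the block). TEAD1 lay between 2.29 and 4.41 RPKM over all 18 libraries, with the highest value in UM-UC-3 siACAT1-1 replicate 1. AMOTL2 was not called either (mean of the 4 comparisons -0.13, SE 0.20), and in T24 cells it had 28.7, 34.4 and 21.8 RPKM in siNC, 28.5, 30.5 and 18.8 RPKM in siACAT1-1 and 26.7, 34.3 and 23.9 RPKM in siACAT1-2 libraries.

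More of the 10 genes were called for replicate number, compared within a line over its 3 groups, than for either siRNA. The same order held for all genes. The siRNA comparisons called at most 0.268% of all genes without the block and 1.36% to 13.9% with it. The replicate test rests on the model with the block, so siRNA counts without the block are not like for like. In UM-UC-3 cells 7 of the 10 were called against 24.6% of all genes (AMOTL2, CTGF, CYR61, ANKRD1, TEAD1, AJUBA and LATS2), and in T24 cells 7 of 10 against 43.9% (ANKRD1, LATS2, WWTR1, AMOTL2, CTGF, CYR61 and AJUBA), by an edgeR test with 2 degrees of freedom. YAP1 and AXL were called in neither line (adjusted p = 0.859 and 0.362 for YAP1, 0.0602 and 0.135 for AXL). DESeq2 called 8 and 6 of the 10, against 31.1% and 40.2%. The edgeR count in UM-UC-3 cells fell to 3 without siACAT1-1 replicate 2 and to 4 without siNC replicate 1.

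In T24 cells ANKRD1 gave the widest split: 12.8, 44.4 and 4.97 RPKM in siNC replicates 1, 2 and 3, 13.2, 72.4 and 3.59 RPKM in siACAT1-1 and 21.9, 35.9 and 6.49 RPKM in siACAT1-2 libraries. Replicate 2 was the highest and replicate 3 the lowest in 3 of 3 groups, a 9.90-fold difference between these numbers (adjusted p = 1.63e-05). AMOTL2 and LATS2 likewise had replicate 2 as the highest in 3 of 3 T24 groups, and by the model they differed 1.48-fold (adjusted p = 0.00557) and 1.87-fold (adjusted p = 0.000145) between their highest and lowest numbers. Replicate 3 was the lowest in 3 of 3 groups for AMOTL2, and for LATS2 by log2 CPM (counts scaled to library size), whereas by RPKM replicate 1 of T24 siACAT1-2 was the lowest for LATS2. CTGF did not follow them: its highest T24 replicate was number 1 in 3 of 3 groups, 2.44-fold above number 2 (adjusted p = 0.00622). WWTR1 in T24 cells was lowest in replicate 2 in 3 of 3 groups, 1.58-fold below replicate 1 by the model (adjusted p = 0.000247). Replicate 1 was the highest in 3 of 3 groups by log2 CPM, but by RPKM replicate 3 was the highest with siNC.

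In UM-UC-3 cells replicate 1 was the highest and replicate 2 the lowest by the model for CTGF (3.81-fold, adjusted p = 0.000664), ANKRD1 (4.94-fold, adjusted p = 0.00324), CYR61 (2.28-fold, adjusted p = 0.00175) and AMOTL2 (1.90-fold, adjusted p = 0.000106). AMOTL2 kept this order in 3 of 3 groups, with 48.0, 21.9 and 30.6 RPKM in siNC replicates 1, 2 and 3, 56.4, 22.3 and 25.0 RPKM in siACAT1-1 and 28.8, 22.4 and 25.1 RPKM in siACAT1-2 libraries. For CTGF, CYR61 and ANKRD1 replicate 1 was the highest in 2 of 3 groups, since UM-UC-3 siACAT1-2 replicate 1 was not raised.

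**Figure D4:**
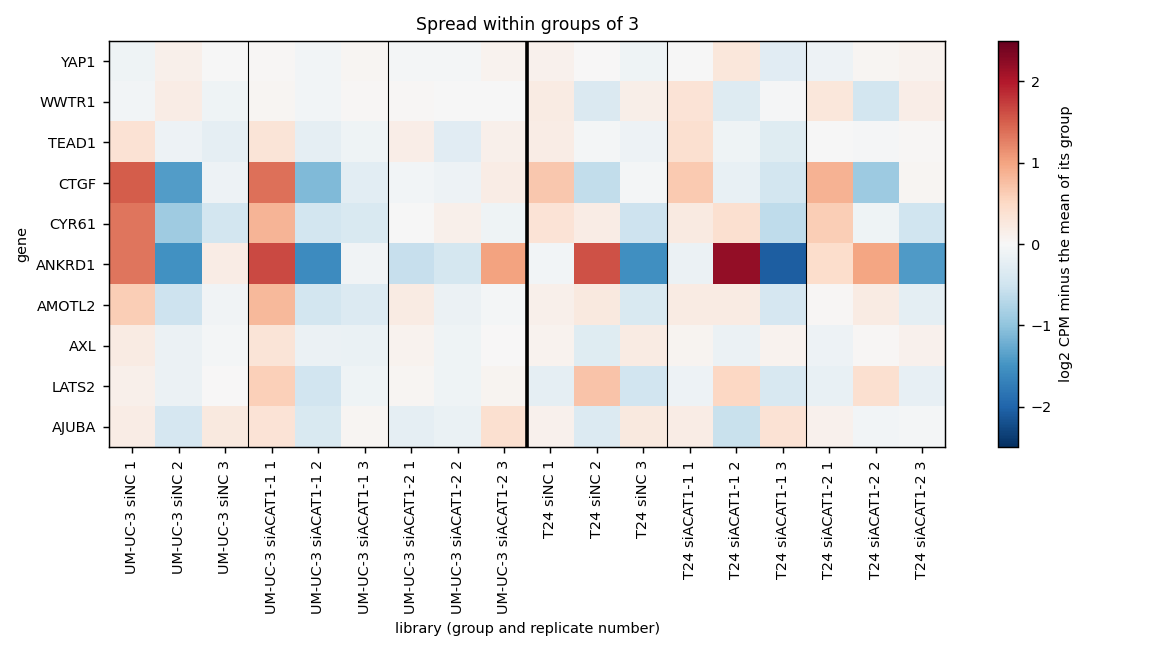
Log2 CPM of each gene in each library minus the mean of its group of 3 (red, above; blue, below), by group and replicate number, UM-UC-3 left and T24 right of the thick line. CTGF, CYR61, ANKRD1 and AMOTL2 are high in replicate 1 and low in replicate 2 of UM-UC-3 siNC and siACAT1-1, the first 3 of these are not raised in replicate 1 of siACAT1-2, and ANKRD1 is high in replicate 2 and low in replicate 3 of each T24 group.

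Genes of wider pathway lists, which hold members of the 10, and of further lists were also called for replicate number. These counts are to be read against the 24.6% of all genes called in UM-UC-3 and the 43.9% called in T24 cells. Of the 22 tested YAP and TEAD target genes, 12 were called in the UM-UC-3 line and 18 in the T24 line, and of the 25 tested Hippo kinases, scaffolds and junction proteins 10 and 18. In both lines AMOTL2, CTGF, CYR61, ANKRD1 and LATS2 were among these target calls, and AMOTL2, AJUBA and LATS2 among these Hippo calls. Of the coactivators, TEAD factors and VGLL cofactors, 1 and 3 of 8 were called, a share below that of all genes in both lines, of the SRF and actin cytoskeleton genes 5 and 9 of 11, of the immediate-early genes 3 and 7 of 9, and of the proliferation genes 5 and 6 of 6. The coactivator list call in UM-UC-3 cells was TEAD1, and WWTR1 was 1 of the 3 in T24 cells. In T24 cells the immediate-early genes DUSP1 (8.14-fold), ATF3 (14.7-fold), IER3 (4.55-fold) and JUNB (3.04-fold) were highest in replicate 2 in 3 of 3 groups by log2 CPM, where ANKRD1, AMOTL2 and LATS2 were highest too. The proliferation marker MKI67 was lowest in T24 replicate 2 in 3 of 3 groups on the same scale, 2.76-fold below replicate 1 (adjusted p = 3.39e-07). In UM-UC-3 cells MKI67 was lowest in replicate 3 in 3 of 3 groups (2.02-fold, adjusted p = 4.04e-05). The 3 immediate-early genes called in that line were highest by the model in different numbers. ATF3 was highest in replicate 3, FOS in replicate 2 and EGR2, at a mean of 0.0575 RPKM, in replicate 1. ANKRD1, AMOTL2 and LATS2 were highest there in replicate 1. The part of genes outside the 10 in the levels of the 10 was not tested.

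Pairs of the 10 genes were correlated across the 18 libraries, with log2 CPM centred on the mean of each line. The values are a description, since replicate numbers are shared between libraries, and no grouping was computed. The highest Pearson correlations were those of CYR61 with AMOTL2 (0.86), CTGF with CYR61 (0.82), ANKRD1 with LATS2 (0.79) and AXL with AJUBA (0.76). CYR61 with ANKRD1 (0.76), ANKRD1 with AMOTL2 (0.72) and CTGF with AMOTL2 (0.71) followed. YAP1 correlated with CTGF, CYR61 and AMOTL2 at -0.05, -0.05 and 0.13, and TEAD1 with the same genes at 0.66, 0.68 and 0.68.

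The genes outside the 10 most like CTGF were RP11-69I8.3 (0.98), CRIM1 (0.78) and BYSL (0.78), and those most like CYR61 were STARD13 (0.90), PCED1B (0.85) and RP11-9J18.1 (0.83). RP11-69I8.3 lies on the opposite strand of CTGF and shares 195 exon bases with it, 39.4% of its own exon bases. The strand setting of the counting is not given in the sources used here. Reads on the shared bases, 8.34% of the CTGF exon bases, therefore cannot be told apart. In the table's GRCh38 coordinates CTGF spans chr6:131948176-131951373 on the minus strand. WWTR1 and YAP1 share 9.45% and 9.97% of their exon bases with antisense genes, WWTR1-AS1 and RP11-864G5.3, while CYR61, ANKRD1, TEAD1 and LATS2 share no exon bases with another gene of the table.

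In the wider list of 22 YAP and TEAD target genes, 1 gene was called for the mean of the 4 comparisons without the block (AXL), with a median log2 fold change of 0.0032 over the list. With the block 5 were called, against 12.4% of all genes: AXL, ASAP1 and IGFBP3 lower and LATS2 and NT5E higher, in a list whose median was 0.021, with 11 genes above and 11 below 0. ASAP1, which encodes a GTPase-activating protein of the ARF family, differed between the siRNAs (siACAT1-2 minus siACAT1-1, log2 -1.38, SE 0.19, adjusted p = 0.00102). NT5E, the ecto-enzyme CD73, did so as well (-0.57, SE 0.11, adjusted p = 0.00983). Both were lower with siACAT1-2, and they were the 2 targets of 22 called there without the block, against the 2.56% given above.

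Of the 25 tested Hippo kinases, scaffolds and junction proteins, 0 were called for the mean of the 4 comparisons without the block (2201 of all 20144 genes had an unadjusted p under 0.05), and 3 were called with it, a share near the 12.4% of all genes called. These were LATS2 and the kinase gene TAOK2 (log2 0.27, SE 0.08, adjusted p = 0.0249), both higher, and AJUBA, lower. Between the siRNAs 4 of the 25 were called without the block, against 2.56% of all genes, with WWC2 (-0.67), AJUBA and TAOK1 (-0.49) lower and WTIP (0.75) higher with siACAT1-2. WTIP, like AJUBA, is a LIM protein of the Ajuba family, and the pair moved in opposite directions between the siRNAs.

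Of the 8 coactivators, TEAD factors and VGLL cofactors, 0 were called for the mean without the block and 1, VGLL4, was called with it (log2 0.35, SE 0.08, adjusted p = 0.00562), a share near the 12.4% of all genes. TEAD2 was higher with siACAT1-2 than with siACAT1-1 (0.99, SE 0.20, adjusted p = 0.0142 in edgeR), with group means of 1.42 RPKM in siNC, 0.795 RPKM in siACAT1-1 and 1.89 RPKM in siACAT1-2 libraries in T24 cells. In UM-UC-3 cells the means were 2.13, 1.32 and 2.23 RPKM in the same order. In both lines TEAD2 was lowest with siACAT1-1.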

How the data were processed

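RNA of 18 libraries was sequenced with a stranded kit that carries molecular identifiers. The authors used Trimmomatic 0.36 to filter reads, STAR 2.5.3 to place them on GRCh38 and featureCounts of Subread 1.5.1 to count them on gene exons, and they deposited raw counts and, from these, RPKM values. The annotation release, the strand setting, the handling of reads on several genes and the collapse of identifiers are not given in the sources used here. The RPKM were recalculated from the counts and were equal in 100% of values (tolerance 1e-06).

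Counts were fitted in edgeR 4.0.16 (R 4.3.3; TMM, filterByExpr by group, quasi-likelihood F test) in 1 model of 18 libraries and 6 groups, with Benjamini-Hochberg adjustment over 20144 genes and a call at an adjusted p under 0.05. A block for the replicate number, separate for each line, was an alternative. The numbers were taken to pair libraries within a line. Across genes, deviations from the group mean correlated at 0.115 to 0.576 in the 9 same-numbered pairs of UM-UC-3. In those of T24 they correlated at 0.356 to 0.686, and the medians for other numbers were -0.11 and -0.40. Without the block, p-values measure the spread between these experiments. With the block, and in the tests of replicate number, they measure the spread left once the differences between numbers are fitted. Other alternatives were DESeq2 size factors, DESeq2 1.42.0, no filter, each line alone and leaving out each library. Replicate libraries differed by more than sampling noise (chi-square per degree of freedom from 11.8 to 174), so each counted once. The models were also run on simulated data, in which fewer genes moved with the replicate number than in the real libraries. That run does not decide between the models with and without the block. Beside all 10 genes and ACAT1, genes of 8 further lists were named when called (at most 6 per list and comparison), with the 3 genes most alike to CTGF and CYR61. The 10 genes, the lists and the comparisons were chosen with earlier results of these data known.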

Additional observations from a re-analysis of the deposited data

Results flagged for a closer look

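With siACAT1-1, 2 of the 10 genes went one way in every UM-UC-3 pair of same-numbered libraries and the other way in every T24 pair. The share of all genes that split in this way was not counted, so the 2 of 10 cannot be set against a background. WWTR1, which encodes the coactivator TAZ, was higher in 3 of 3 UM-UC-3 pairs (log2 fold change 0.34 in edgeR) and lower in 3 of 3 T24 pairs (-0.19). CTGF was higher in 3 of 3 UM-UC-3 pairs (0.34) and lower in 3 of 3 T24 pairs (-0.65). Neither gene passed the test in either line, with or without the replicate block. The difference between the lines for siACAT1-1 alone was not tested, and the difference averaged over both siRNAs was called for neither gene. With siACAT1-2, the pairs of each gene did not split by line in this way: CTGF was higher in 3 of 3 T24 pairs and in 1 of 3 UM-UC-3 pairs.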

How the results depend on the processing

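The replicate block changed the count of called genes most. With it, the 10 genes gave 1 and 1 calls in UM-UC-3 cells (siACAT1-1, siACAT1-2), 2 and 3 in T24 cells, 3 for the mean of the 4 comparisons, 3 between the siRNAs and 6 between the lines, against 0, 0, 0, 0, 1, 1 and 3 without it, and the count for the siACAT1 effect between the lines stayed at 0. Without the filter on low counts the counts were 1, 2, 0, 2, 2, 2 and 5. Calls among all genes rose as well, for UM-UC-3 from 2 to 167 (siACAT1-1) and from 11 to 58 (siACAT1-2). For T24 siACAT1-2 they rose from 54 to 180, and for the mean from 45 to 383. The siRNA difference went from 515 to 884 called genes and the line difference from 8924 to 8957. DESeq2 gave 1 call with siACAT1-2 in T24 cells and 2 between the siRNAs. DESeq2 size factors and fits of each line alone left all counts within 1.5 times. Leaving out 1 library without the block gave 0 to 1 calls with siACAT1-2 in T24 cells, for the mean and between the siRNAs, and 3 to 8 for replicate number in UM-UC-3 cells. Leaving out 1 library with the block, which was chosen after seeing the data, gave 0 to 2 and 0 to 1 calls in UM-UC-3 cells, 0 to 3 and 2 to 3 in T24 cells, and 2 to 4 both for the mean and between the siRNAs.

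Directions turned for genes that were not called. With the block ANKRD1 for siACAT1-2 in UM-UC-3 had a log2 fold change of 0.25 and AJUBA with siACAT1-1 in T24 cells one of -0.0044. Leaving out 1 library moved CTGF from -0.65 to 1.43 and from -1.50 to 0.041 in UM-UC-3 cells, from -0.051 to 0.90 with siACAT1-2 in T24 cells and from -0.47 to 0.33 for the mean. CYR61 ranged from -0.18 to 1.36 and from -1.30 to 0.071 in UM-UC-3 cells, from -0.42 to 0.071 and from -0.23 to 0.34 in T24 cells, and from -0.34 to 0.35 for the mean. ANKRD1 ranged from -0.85 to 0.68 in UM-UC-3 cells for siACAT1-2, and from -1.23 to 1.63 and from -0.44 to 1.19 in T24 cells. AJUBA with siACAT1-1 in T24 cells ranged from -0.18 to 0.23, and for the mean WWTR1 ranged from -0.019 to 0.11 and AMOTL2 from -0.26 to 0.054. The cause was not tested. With 3 libraries a group, the SE of CTGF, CYR61 and ANKRD1 limits what could be called.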

Other observations

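Genes of other groups were called for ACAT1 knockdown when the replicate number was in the edgeR model, which called 12.4% of all genes for the mean of the 4 comparisons. Of 6 proliferation genes, 6 were lower for the mean of the 4 comparisons (median log2 fold change -0.68), among them the nuclear antigen MKI67 (-0.77, SE 0.08, adjusted p = 1.41e-05) and the mitotic cyclin CCNB1 (-0.79, SE 0.10, adjusted p = 4.8e-05). In T24 cells with siACAT1-1 6 of 6 were lower, against 13.9% of all genes called, and there MKI67 went from 88.1 ± 35.0 RPKM with siNC to 38.3 ± 13.8 RPKM (SD, n = 3 each), and in UM-UC-3 cells with siACAT1-1 0 of 6 were called, against 3.06% of all genes. Without the block 0 of 6 were called for the mean (2201 of all genes had an unadjusted p under 0.05).

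Of 9 immediate-early genes, which respond within minutes to serum and stress, 5 were higher for the mean with the block (JUNB, IER2, EGR1, IER3 and DUSP1), against 12.4% of all genes called, and 0 without it (0.223% of all genes). In UM-UC-3 cells with siACAT1-1, where ANKRD1 was higher too, 6 of 9 were higher, against 3.06% of all genes called: DUSP1 (1.35, SE 0.25, adjusted p = 0.00608), FOSB (1.69), EGR1, ATF3 (1.61), IER2 (0.61) and JUNB (0.77). For UM-UC-3 siACAT1-2 the block called 0 of 9, against 1.36% of all genes. T24 siACAT1-1 gave 1 higher call (IER2) against 13.9%, and T24 siACAT1-2 gave 2 (IER2 and JUNB) against 8.48%. Between the siRNAs the block called ATF3 and FOSB, both lower for siACAT1-2, 2 of 9 against 20.6%. FOSB was low in the UM-UC-3 line, at group means of 0.0854 RPKM (siNC) and 0.275 RPKM (siACAT1-1). Of 11 SRF and actin cytoskeleton genes, whose regulation by cell shape overlaps with that of YAP, ACTA2 alone was called for the mean (-0.69, SE 0.12, adjusted p = 0.0013, with the block), a share below that of all genes. Between the siRNAs, where the blocked model called 20.6% of all genes, 7 of the 11 were higher with siACAT1-2 (ACTB, TPM1, TAGLN, MYL9, CNN2, ACTG1 and FHL2), while 6 of the 22 YAP and TEAD targets were called, all of them lower and a share near the background. Of 9 epithelial markers, the keratins KRT18 (-0.31, adjusted p = 0.00416), KRT7 (-0.33, adjusted p = 0.00827) and KRT8 (-0.19, adjusted p = 0.0469) were lower for the mean with the block, 3 of 9 against 12.4% of all genes, and 0 were called without it. KRT8 did not move one way in every comparison: it was lower in UM-UC-3 cells with siACAT1-1 (-0.46) and siACAT1-2 (-0.48) and higher in T24 cells with siACAT1-2 (0.35, adjusted p = 0.0365), and it was higher with siACAT1-2 than with siACAT1-1 (0.25, adjusted p = 0.0164).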
